A study of Homo sapiens with 4 samples.

Results

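The Wnt/beta-catenin pathway of RKO, a human colorectal carcinoma cell line, was described through 40 genes picked by name for their roles in it. They comprised 8 feedback targets and inhibitors, 10 receptors, 2 genes of ligand export, 4 transducers, 6 genes of beta-catenin and its destruction complex, and 10 TCF factors and cofactors. Of the 15357 genes in the tables, 39 were such members, and DKK1, a secreted inhibitor of the pathway, was not listed in the tables. RNA-seq had been performed on 4 samples, 2 of RKO cells infected with a lentivirus for stable expression of a control shRNA (vector) and 2 infected with a lentivirus for stable expression of CHD7 shRNA2, a CHD7 knockdown (shCHD7_2), to ask which genes respond to the loss of CHD7. Both groups were thus lentivirus-infected cells, a single CHD7 hairpin was sequenced, and the libraries were prepared with oligo-dT beads, so that the values describe polyadenylated RNA.

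Wnt ligands are lipidated by PORCN and carried out of the producing cell by WLS, and they bind Frizzled receptors together with LRP5 or LRP6. In the absence of a ligand, a destruction complex of APC, axin and the kinases GSK3 and CK1 marks beta-catenin for degradation. When a ligand acts through Dishevelled, beta-catenin accumulates, enters the nucleus and works with TCF and LEF factors on target genes that include the pathway's own inhibitors, and in the intestine this circuit maintains the stem cells of the crypt and is often active in colorectal cancer.

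CHD7, the chromatin remodeller targeted by the hairpin, was measured at 85.4 and 91.0 CPM (counts scaled to library size) in the vector samples and at 55.5 and 50.1 CPM in the shCHD7_2 samples. It fell by 0.74 on the log2 scale (adjusted p = 4.15e-06 in the quasi-likelihood test of edgeR, standard error 0.088), and thus its level fell by 40.1% from the vector mean. The libraries held between 15734679 and 16068650 estimated counts. Nothing in the labels says that the 2 samples of a group came from separate cultures, so p-values measure only the spread between these samples. Among the 12 markers of colon epithelium, only KRT18, KRT8, CDX2 and EPCAM were clearly detected. The adherens junction gene CDH1 had 0 counts in both vector samples. KRT20, LGALS4 and CDH17 had at most 1 count in any sample. KRT19, CDX1, VIL1 and MUC2 were not listed, so that 8 of the 12 markers were in the tables at all. The summed level of those markers was 81.2 and 75.3 FPKM (fragments normalized to gene length and library size) in the vector samples and 81.6 and 90.3 FPKM in the shCHD7_2 samples. Fibroblast markers summed to at most 0.10 FPKM and endothelial markers to at most 0.03 FPKM in any sample. Of the 5 leukocyte markers, CD68 supplied nearly all of the summed 530 and 495 FPKM in the vector samples and of the 602 and 611 FPKM in the shCHD7_2 samples, and PTPRC, the marker that defines leukocytes, was not listed. The part of these marker levels in the results was not tested. In bulk samples, fewer cells of a type and less RNA per cell cannot be told apart.

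The machinery of the pathway was expressed at widely different levels in the vector samples, and most of the feedback arm lay low. Mean vector levels of the members ran from 0 FPKM for LGR5 to 143 FPKM for CTNNB1, which encodes beta-catenin and stood above 96.7% of the 15357 genes. Of the 7 listed feedback targets and inhibitors, none had a mean vector level above the 6.56 FPKM of NKD2. All 4 transducers, by contrast, lay at or above the 24.3 FPKM of DVL3. Levels below that of NKD2 were not particular to the feedback arm. Among the receptors only FZD6, LRP5 and FZD3 lay above it, and FZD1 was at 1.80 FPKM. Of the TCF factors and cofactors, TCF7L2, BCL9, TNIK, CTNNBIP1 and TCF7L1 lay below it and the others above. No sample with an activated pathway was part of the series, so the label of a quiet pathway rests on these levels alone. LEF1, itself a known target of the pathway, did not share the low level of the feedback arm, with a mean of 20.1 FPKM. It was not the only such target. Among the further beta-catenin targets taken up below, mean vector levels ran from 0 FPKM for ASCL2 to 270 FPKM for FOSL1.

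AXIN2, the scaffold that is the standard readout of active signaling, was present at 1.69 and 1.36 FPKM in the vector samples and at 1.36 and 1.32 FPKM in the shCHD7_2 samples, and its mean vector level stood above 31.2% of all genes. NKD1, a Dishevelled-binding inhibitor, was at 1.74 and 1.79 FPKM in the vector samples and 1.94 and 2.10 FPKM after knockdown. ZNRF3, a ubiquitin ligase that removes Frizzled receptors from the membrane, was at 2.60 and 2.64 FPKM and then 2.35 and 2.40 FPKM. These genes were thus low but detected, with 82 to 106 AXIN2 counts in a sample. The crypt stem cell receptor LGR5 had 0 counts in 3 samples and 1 in the other, and RNF43, the partner ligase of ZNRF3, had 3 and 1 counts in the vector samples and 2 and 2 in the shCHD7_2 samples. DKK3, a divergent member of the Dickkopf family, had 5 and 5 counts and then 11 and 5 counts. For LGR5, RNF43 and DKK3 the counts were too low to be tested, and a change could not be detected at this depth, where 3 counts correspond to 0.187 to 0.193 CPM.

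None of the 4 feedback genes that could be tested passed the adjusted p threshold of 0.05 in the edgeR fit, and none had an unadjusted p under 0.05. Of all genes tested, 11.5% and 25.4% did so, and 4 genes are too few to set against these shares. The CPM values of AXIN2 were 6.83 and 5.64 in the vector samples and 5.24 and 5.14 in the shCHD7_2 samples, which did not overlap. Its log2 fold change was -0.26 with a 95% interval from -0.64 to 0.11 (adjusted p = 0.390), so a fall of more than 1.5-fold was within the interval. For ZNRF3 the values were 17.3 and 17.6 CPM against 15.2 and 15.5 CPM, also without overlap, with a log2 fold change of -0.19 (95% interval -0.44 to 0.06). NKD1 pointed the other way, with 18.9 and 20.3 CPM against 21.1 and 21.0 CPM and a log2 fold change of 0.10 (95% interval -0.13 to 0.33). NKD2, the homologue of NKD1, was at 13.6 and 10.8 CPM in the vector samples and 11.5 and 17.0 CPM in the shCHD7_2 samples, and the groups overlapped. Its log2 fold change of 0.22 became 0.48 without shCHD7_2 replicate 1 (edgeR adjusted p = 0.0259) and -0.09 without shCHD7_2 replicate 2. The estimates of the feedback arm held both signs, with 2 members above and 2 below 0, and all 4 intervals included 0.

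Among the receptors, FZD6 was the most abundant and the only one of the 40 members to pass the adjusted p threshold. FZD6 is a Frizzled best known from planar cell polarity and from antagonism of the beta-catenin branch. It was measured at 119 and 125 CPM in the vector samples and at 101 and 91.4 CPM in the shCHD7_2 samples, so that both knockdown samples lay below both vector samples. FZD6 fell by 0.34 on the log2 scale (95% interval -0.51 to -0.17, standard error 0.083, edgeR adjusted p = 0.00877), a change below the fold threshold of 1.5. The call was lost in 5 of 13 alternatives. The adjusted p from edgeR was 0.161 without vector replicate 2, 0.0583 without shCHD7_2 replicate 2 and 0.106 without a filter on low counts, with log2 fold changes of -0.31, -0.27 and -0.34.

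FZD3, which also acts in planar cell polarity, had 44.1 and 49.6 CPM in the vector samples and 39.7 and 37.2 CPM in the shCHD7_2 samples. The groups did not overlap, and FZD3 lay just outside the threshold, with a log2 fold change of -0.29 (adjusted p = 0.0515 from edgeR). When 1 sample was left out, its adjusted p ranged from 0.0287 without shCHD7_2 replicate 1 to 0.524 without vector replicate 2, and in DESeq2 it was 0.223. FZD1, the least abundant receptor, had 1.82 and 1.77 FPKM in the vector samples and 1.56 and 1.62 FPKM in the shCHD7_2 samples, with a log2 fold change of -0.22 on the count scale (95% interval -0.56 to 0.12). The log2 fold changes of the other 7 receptors were -0.28 for FZD7, -0.07 for FZD4, -0.06 for LRP6, 0.04 for LRP5, 0.08 for LGR4, 0.13 for FZD2 and 0.21 for FZD5, and none of these passed the threshold. In the order of mean vector level, FZD6 was followed by LRP5 (14.5 FPKM), FZD3 (11.7 FPKM), LRP6, FZD5, FZD7, LGR4, FZD2, FZD4 and FZD1, and the vector samples of LGR4 and FZD2, and of FZD2 and FZD4, overlapped.

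Summed over FZD1 to FZD7, the Frizzled transcripts came to 58.9 and 61.3 FPKM in the vector samples and to 54.5 and 51.1 FPKM in the shCHD7_2 samples. FZD6 supplied 55.0% and 55.1% of that sum in the vector samples and 52.2% and 49.8% in the shCHD7_2 samples. The share of FZD5 was 7.37% and 7.93% and then 10.7% and 9.92%. FZD6 therefore remained the leading Frizzled transcript in all 4 samples, and these shares are given as a description without a test. Between the co-receptors, LRP5 gave 74.2% and 68.4% of the joint LRP5 and LRP6 level in the vector samples and 69.6% and 76.8% in the shCHD7_2 samples, which overlapped.

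WLS, the carrier of Wnt ligands to the cell surface, was measured at 111 and 114 CPM in the vector samples and at 96.9 and 93.2 CPM in the shCHD7_2 samples. The groups did not overlap, but its log2 fold change of -0.24 (95% interval -0.41 to -0.07) stood just outside the threshold, with an adjusted p of 0.0538 from edgeR. That value ranged from 0.0417 without shCHD7_2 replicate 1 to 0.422 without vector replicate 2, and was 0.118 in DESeq2. PORCN, the acyltransferase that lipidates the ligands, was at 10.1 and 9.43 FPKM in the vector samples and 9.94 and 11.2 FPKM in the shCHD7_2 samples, which overlapped.

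Of the transducers, CSNK1E, the casein kinase that phosphorylates Dishevelled, was the most abundant. It had 172 and 154 CPM in the vector samples and 179 and 195 CPM in the shCHD7_2 samples, with no overlap and a log2 fold change of 0.20 (95% interval 0.03 to 0.37), which did not pass after adjustment (adjusted p = 0.123 from edgeR). Its adjusted p ranged from 0.0317 without shCHD7_2 replicate 1 to 0.736 without vector replicate 2, and was 0.234 in DESeq2. The counts of CSNK1E were not whole in 3 samples, as when reads are divided between genes. Among the other members, those of FZD5 and PYGO2 were not whole in all 4 samples, and those of TCF7 and ZNRF3 in 1. The Dishevelled genes DVL1, DVL2 and DVL3, whose products relay the receptor signal, had log2 fold changes of 0.02, -0.08 and -0.11, and DVL3, the lowest of the transducers, was at 24.7 and 24.0 FPKM and then 22.6 and 23.5 FPKM. Their summed level was 99.1 and 92.4 FPKM in the vector samples and 92.9 and 98.6 FPKM in the shCHD7_2 samples, and these ranges overlapped.

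Neither beta-catenin nor any gene of the destruction complex passed the test, which 11.5% of all genes tested passed. CTNNB1 had 446 and 483 CPM in the vector samples and 450.5 and 437 CPM in the shCHD7_2 samples, which overlapped, and its log2 fold change was -0.07 (95% interval -0.22 to 0.08, adjusted p = 0.619 from edgeR). APC, the tumour suppressor scaffold, was the least abundant gene of the complex, with 68.5 and 81.4 CPM against 78.3 and 69.3 CPM and a log2 fold change of -0.02 (95% interval -0.22 to 0.17). Each of these intervals excluded a change of 1.5-fold. The axin gene AXIN1 and the kinase gene GSK3A likewise overlapped between the groups, with log2 fold changes of -0.03 and 0.00, while GSK3B and the casein kinase gene CSNK1A1 did not overlap and had log2 fold changes of 0.14 and -0.14. In FPKM, GSK3A supplied 76.0% and 75.3% of the joint GSK3A and GSK3B level in the vector samples and 72.0% and 75.5% in the shCHD7_2 samples. These values concern mRNA, and the abundance or location of the beta-catenin protein was not measured.

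Of the TCF and LEF factors, LEF1 was the most abundant in FPKM. It was measured at 54.0 and 50.7 CPM in the vector samples and at 45.7 and 45.4 CPM in the shCHD7_2 samples, and TCF7, which encodes the factor TCF1, at 35.8 and 33.6 CPM and then 39.4 and 40.6 CPM. Neither gene overlapped between the groups, and they differed in opposite directions, with log2 fold changes of -0.20 for LEF1 (95% interval -0.39 to -0.02) and 0.21 for TCF7 (95% interval 0.01 to 0.40). After adjustment neither passed the threshold in edgeR, with adjusted p of 0.150 for LEF1 and 0.162 for TCF7. TCF7L2, which encodes TCF4, the main TCF of the intestinal epithelium, was at 23.4 and 24.3 CPM in the vector samples and 23.4 and 24.4 CPM in the shCHD7_2 samples, a log2 fold change of 0.00 (95% interval -0.21 to 0.22). TCF7L1, which mostly acts as a repressor, had 0 and 1 counts and then 1 and 1 counts and was not tested.

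Together the TCF and LEF transcripts summed to 39.1 and 37.9 FPKM in the vector samples and to 38.4 and 39 FPKM in the shCHD7_2 samples. Within that sum LEF1 took 52.4% and 52.0% in the vector samples and 47.2% and 46.1% in the shCHD7_2 samples. The ratio of TCF7 to LEF1 in FPKM was 0.612 and 0.603 in the vector samples and 0.770 and 0.809 in the shCHD7_2 samples, without overlap. LEF1 remained the most abundant of these factors in every sample, and the ratio, which was picked after its values were seen, was not tested. Both genes also have short isoforms that lack the beta-catenin-binding domain, and the gene-level values do not separate them.

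An internal start site of each of LEF1 and TCF7 is shown. The genes were picked because they encode the most abundant TCF and LEF factors and lay on opposite sides of 0. The windows run from 250 bases before to 50 bases after an annotated start, as RefSeq gives them on GRCh38.p14, at chr4:108166252-108166551 on the minus strand for LEF1 and at chr5:134123368-134123667 on the plus strand for the downstream one of the 2 TCF7 starts in the table. Capitals mark CAAAG, the reverse complement of CTTTG, the core of the TCF/LEF site.
LEF1: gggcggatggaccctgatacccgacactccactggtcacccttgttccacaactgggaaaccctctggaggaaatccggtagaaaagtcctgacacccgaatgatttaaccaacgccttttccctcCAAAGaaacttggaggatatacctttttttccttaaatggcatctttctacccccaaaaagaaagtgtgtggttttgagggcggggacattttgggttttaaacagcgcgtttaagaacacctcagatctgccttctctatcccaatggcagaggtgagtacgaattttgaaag
TCF7: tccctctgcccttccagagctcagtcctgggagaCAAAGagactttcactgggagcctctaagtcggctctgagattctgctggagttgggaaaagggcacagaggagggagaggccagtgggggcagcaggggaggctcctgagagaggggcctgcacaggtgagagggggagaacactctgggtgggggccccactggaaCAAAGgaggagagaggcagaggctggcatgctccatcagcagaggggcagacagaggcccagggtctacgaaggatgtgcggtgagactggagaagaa

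The LEF1 window held 1 CAAAG and the TCF7 window 2, and the window at the upstream TCF7 start, chr5:134115363-134115662, held none on either strand. These 5 letters are frequent. On either strand, CTTTG was present in windows of 12 of the 30 members with an entry (40%), in those of 45.9% of 9457 tested genes and in those of 52.6% of all 27305 genes in the RefSeq table. Members without an entry were AXIN2, ZNRF3, LGR5, NKD1, DKK3, FZD2, FZD3, FZD6, FZD7 and LRP6. A match of letters is a description and not a binding site.

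Of the cofactors, PYGO2, a co-activator that binds BCL9, was the most abundant at 20.9 and 19.5 FPKM in the vector samples and 22.9 and 23.7 FPKM in the shCHD7_2 samples. Its log2 fold change on the count scale was 0.16 (95% interval -0.02 to 0.34). CTNNBIP1, an inhibitor that keeps beta-catenin from TCF factors, had the highest estimate of any member, a log2 fold change of 0.25 (95% interval -0.02 to 0.53), and did not pass. The estimates were 0.09 for BCL9, the adaptor between beta-catenin and PYGO2, -0.11 for TNIK, a kinase of the TCF4 complex, -0.12 for the co-repressor TLE1 and -0.01 for its relative TLE3. The mean vector levels of PYGO2 and LEF1, of BCL9 and TNIK, and of TNIK and CTNNBIP1 were neighbours whose vector samples overlapped.

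Of the 40 members, 35 were tested and 1 passed the adjusted p threshold at any fold (2.86%), against 11.5% of the 11955 genes tested, in which 4.94% were higher and 6.54% lower in the shCHD7_2 samples. No member passed both the adjusted p and the fold threshold in edgeR or in DESeq2, against 2.88% of all genes tested. At an unadjusted p under 0.05 there were 6 members in edgeR, namely FZD6, FZD3, WLS, CSNK1E, LEF1 and TCF7, or 17.1% against 25.4% of all genes, and 4 members in DESeq2. The groups did not overlap for 20 members (57.1%), 8 higher and 12 lower, a share near the 53.7% of all genes. The median log2 fold change of the members was -0.02, beside 0.00 for all genes tested, with 16 above and 19 below 0 (in limma on log2(FPKM + 1) it was 0.02, beside 0.04 for all genes), and their median absolute log2 fold change was 0.12, beside 0.13 for all genes. Member estimates lay between -0.34 and 0.25. The 95% interval excluded a change of 1.5-fold for 34 of the 35 tested members (97.1%), with AXIN2 as the exception, while it did so for 80.5% of all genes tested, which include many with lower counts.

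**Figure D1:**
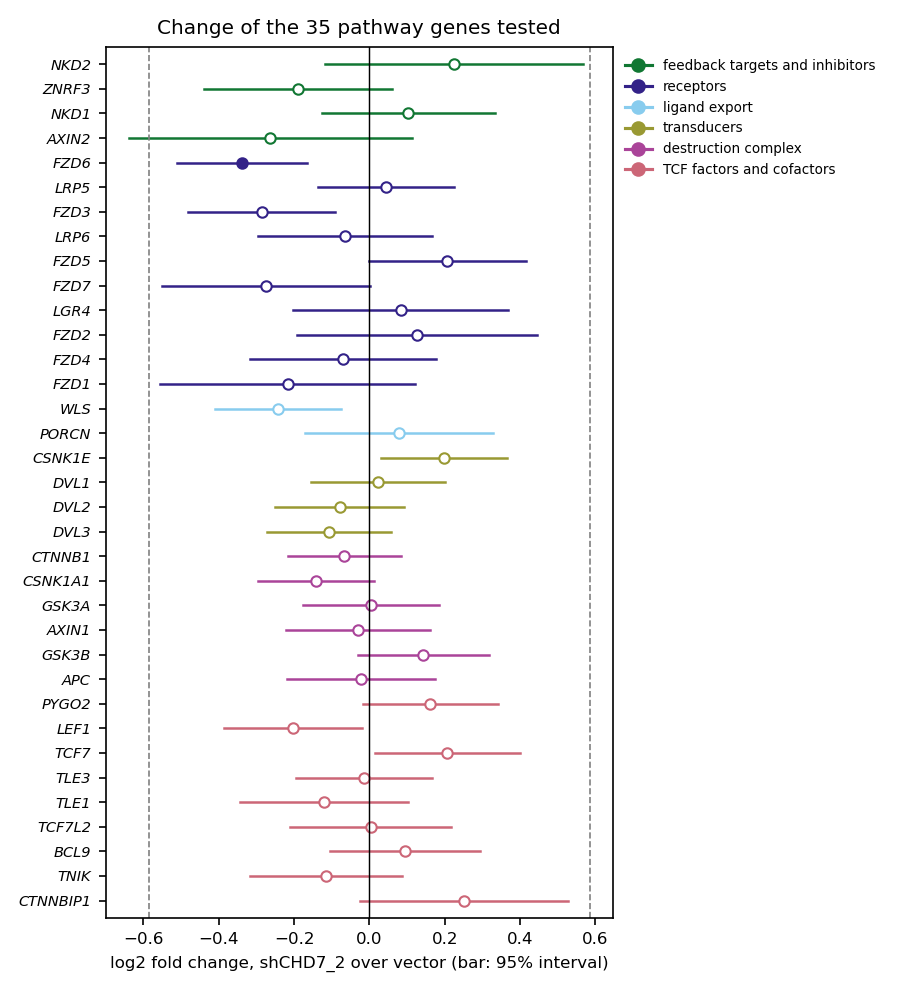
Log2 fold change of shCHD7_2 over vector for the 35 members tested, with bars for the 95% interval from edgeR's quasi-likelihood fit, colours for the role and dashed lines at a fold of 1.5 in each direction. The filled point is FZD6, the 1 member past the adjusted p threshold, and only the bar of AXIN2, from -0.64 to 0.11, crosses a dashed line.

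A further list of 93 Wnt genes, none of them among the 40, gave the surroundings of these members. Of these, 69 were listed in the tables, 50 were tested and 4 passed the adjusted p threshold at any fold (8%, beside 11.5% of all genes), 2 higher and 2 lower, while 14 had an unadjusted p under 0.05 (28.0%, beside 25.4% of all genes). Of the 19 Wnt ligands, 13 were listed and only WNT2B, WNT3, WNT10A and WNT11 had enough counts to be tested, with none past the threshold and mean vector levels of at most 2.76 FPKM. Among the R-spondins and secreted antagonists, 1 of 13 genes was tested, NOTUM, a deacylase that inactivates Wnt ligands and is a feedback target itself, with 3.09 and 3.23 CPM against 2.62 and 1.57 CPM and a log2 fold change of -0.59 (adjusted p = 0.156 from edgeR). For NOTUM these became -1.01 and 0.0348 without shCHD7_2 replicate 1. None of the 5 tested genes among the other receptors passed.

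BCL9L, the paralogue of BCL9 and an adaptor of beta-catenin, passed both thresholds. It rose from 19.1 and 16.7 CPM in the vector samples to 26.5 and 29.1 CPM in the shCHD7_2 samples, or by 0.64 on the log2 scale (edgeR adjusted p = 0.000455, standard error 0.11). Its log2 fold change was 0.54 without vector replicate 2 and 0.57 without shCHD7_2 replicate 2, both below a fold of 1.5, and its adjusted p was 0.062 without a filter on low counts. BCL9 itself, at 30.1 and 30.8 CPM and then 33.4 and 31.8 CPM, did not pass, and the difference between the paralogues was not tested. TNKS, the tankyrase that marks axin for degradation, fell from 98.0 and 111 CPM to 89.1 and 80.8 CPM, a log2 fold change of -0.30 (adjusted p = 0.0279 from edgeR). TNKS lost its call in 8 of 13 alternatives, with an adjusted p of 0.473 without vector replicate 2, 0.131 without shCHD7_2 replicate 2 and 0.0699 in DESeq2.

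Of 20 further genes known as beta-catenin targets, 12 were tested. At the adjusted p threshold 1 rose and 1 fell (16.7%, beside 11.5% of all genes tested). An unadjusted p under 0.05 in edgeR was found for 5 of the 12 (41.7%), beside 25.4% of all genes. CD44, a cell surface receptor for hyaluronan, fell from 309 and 306 CPM in the vector samples to 237 and 222 CPM in the shCHD7_2 samples (log2 fold change -0.42, edgeR adjusted p = 0.000468, standard error 0.074), which is below a fold of 1.5. EPHB3, a receptor tyrosine kinase that positions cells in the crypt, rose from 0.837 and 0.443 CPM to 1.497 and 1.755 CPM, or by 1.34 on the log2 scale (edgeR adjusted p = 0.0251, standard error 0.38). The counts behind EPHB3 were low, and its adjusted p was 0.302 without vector replicate 2, 0.128 without shCHD7_2 replicate 2 and 0.322 in DESeq2. The growth regulators MYC and CCND1, named here after their values were seen, had log2 fold changes of -0.03 and 0.22 and did not pass (adjusted p of 0.839 and 0.0727 from edgeR). CCND1 did pass without shCHD7_2 replicate 2 (adjusted p = 0.043 from edgeR) and in both limma fits with a filter (adjusted p of 0.0468 and 0.0491). Of the 12 targets, 5 lay above and 7 below 0, beside 5993 above and 5962 below 0 over all genes tested.

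An earlier scan of these data had picked out 3 words of 7 bases that were frequent in the 3′ UTRs of genes that fell in the shCHD7_2 samples, namely AGCTATT, then GCTATTA, which overlaps it by 6 letters, and finally GAAGCTA, which overlaps it by 5, so their presence in the members is a description and no independent evidence. At least 1 of them, on the transcript strand of the longest GENCODE 29 3′ UTR, was found in 9 of the 35 tested members (25.7%), beside 22.3% of 11688 tested genes. The members with a word were LGR4, LRP6, TNIK, ZNRF3, FZD3, NKD1, FZD5, CSNK1A1 and DVL3, with a median log2 fold change of -0.11, and the 26 without one had a median of -0.01. Over all tested genes these medians were -0.08 and 0.02. The 3′ UTRs ran from 1906 bases (LGR4) to 15468 bases (NKD1) in the members with a word. In the members without one they ran from 184 bases (FZD2) to 5465 bases (GSK3B). The part of this length in the medians was not tested. Neither FZD6 nor WLS held a word, so the member that passed the test is not among the carriers. Of the further Wnt genes that passed, CD44 and TNKS, which fell, held 2 each and BCL9L and EPHB3, which rose, held none. The words were picked from genes that fell, so this split by direction repeats that choice and is no evidence. The 2 words of CD44 overlap in a single stretch. Sites of 28 to 30 bases on GRCh38 are shown for the members with overlapping words and for CD44, at chr12:12121028-12121057 (minus strand) for LRP6, chr3:184173587-184173614 (plus strand) for DVL3, chr3:171063026-171063055 (minus strand) for TNIK and chr11:35229861-35229890 (plus strand) for CD44, with the words in capitals.
LRP6: gggggggagggAGCTATTAgagaaggatga
DVL3: caataaatggtAGCTATTAttattatta
TNIK: aactttccctcAGCTATTAtgcaacagatc
CD44: ccaaagggtGAAGCTATTtatctgtagtaa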

How the data were processed

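The authors deposited 2 tables for 15357 genes and 4 samples, estimated counts per gene (expected counts, not normalized) and FPKM, scaled by them to gene length and to library size. The submitters' processing notes name Bowtie2, RSEM, DESeq2 and hg38, with no versions or roles. Depending on the sample, 13.6% to 14.7% of its counts were fractional, so genes with near copies can exchange reads.

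Counts were rounded and tested in R 4.3.3 with edgeR 4.0.16, using filterByExpr, TMM scaling, the quasi-likelihood test and Benjamini-Hochberg adjustment over the 11955 genes that passed the filter. CPM uses TMM-scaled totals, standard errors derive from the F statistic, and intervals are at 95%. The paper names no test for the RNA-seq of the RKO knockdown, and the thresholds it states (adjusted p under 0.05, fold of at least 1.5) were used with and without the fold. With 2 samples against 2, the smallest two-sided permutation p is 0.333. FPKM served to compare levels between genes. Intervals cover the spread between these samples, and the floor of 3 counts covers counting error only. The fit was tested on simulated data.

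The 40 members and the further lists were chosen with earlier results of these data known. Values are printed for members past the threshold, for the feedback genes, TCF7, TCF7L1, TCF7L2, LEF1, CTNNB1 and APC, and for the highest and lowest vector FPKM of each role. Further Wnt genes are named where they passed, and other names (FZD3, WLS, MYC, CCND1, NOTUM, the tested ligands and the remaining members) were added after their values were seen. TLE5 was matched under its older symbol AES. Gene locations and 3′ UTRs are from GENCODE 29, and start site windows from RefSeq.

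Alternatives were DESeq2's size factors in edgeR, DESeq2 1.42.0, no filter or a minimum mean CPM of 1, a replicate block, limma 3.58.1 on log2(FPKM + 1) and log2(FPKM + 0.1) with a minimum mean FPKM of 1 and on log2(FPKM + 1) with none, and leaving out each sample. A crossed replicate block was added after the data were seen. Same-numbered samples did not deviate together.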

Additional observations from a re-analysis of the deposited data

How the results depend on the processing

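The count of members past the adjusted p threshold was 1, FZD6, in edgeR, and FZD6 alone passed with DESeq2's size factors, in DESeq2, with a minimum mean CPM of 1 and in both limma fits with a filter. It was 0 without a filter on low counts and in limma without a filter, and 0 to 5 when 1 sample was left out, with FZD6 among the 5 and CSNK1E, FZD3, NKD2 and WLS beside it. Of the fits without 1 sample, the one with the most members past the adjusted p threshold also had the most calls over all genes. A count of members or further Wnt genes has to be read beside that over all genes, given below. No member passed both thresholds in any setting. For FZD6 the adjusted p was under 0.05 in 8 of 13 alternatives, with log2 fold changes from -0.42 to -0.27 and adjusted p from 2.81e-09 to 0.195. The 8 include the crossed replicate block, chosen after the data were seen, which gave the lowest adjusted p. In limma without a filter CHD7 fell by 0.51 on the log2 scale (adjusted p = 0.127), and its call stayed in the other 12 alternatives.

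Of the further Wnt genes, 4 passed the adjusted p threshold and 2 both thresholds in edgeR, against 2 and 1 in DESeq2, 1 and 0 without a filter, 3 and 0 in limma on log2(FPKM + 1), 3 and 1 on log2(FPKM + 0.1), and 0 and 0 in limma without a filter. Leaving out 1 sample gave 2 to 8 and 0 to 3. The adjusted p stayed under 0.05 in 12 of 13 alternatives for CD44, 11 of 13 for BCL9L, 5 of 13 for TNKS and 6 of 11 for EPHB3. Each of these counts includes the crossed replicate block.

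The replicate numbers did not pair the samples (correlation of deviations -0.198 across 11955 genes). With the replicate block, 0 members (FZD6 at an adjusted p of 0.0702) and 3 further Wnt genes passed the adjusted p threshold, and 755 genes in place of 1373 over all genes tested. With the crossed replicate block, a setting chosen after the data were seen, calls rose throughout. They came to 10 of 35 members, 15 of 50 further Wnt genes and 3751 of all 11955 genes tested. Over all genes, 773 passed in DESeq2, 197 without a filter, 8 in limma without a filter and 610 to 1702 without 1 sample. Past both thresholds, 344 genes became 210 in DESeq2, 141 without a filter, and 172 and 8 in limma on log2(FPKM + 1) with and without one.

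The median log2 fold change of the members, -0.022, was -0.019 with DESeq2's size factors, -0.013 in DESeq2, -0.020 with the replicate block, -0.018 without a filter, 0.024 and 0.027 in limma with a filter, 0.014 in limma without one, and -0.055 to -0.022 without 1 sample. The median of all genes was 0.038, 0.042 and 0.021 in the limma fits.

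Some members that had not passed changed sign, most of them near 0 and NKD2 at 0.22. TCF7L2 was at -0.00032 without a filter, and APC and TLE3 were at 0.024 and 0.048 in limma on log2(FPKM + 1), with or without a filter, and at 0.027 and 0.051 on log2(FPKM + 0.1), while MYC, a further Wnt gene, was at 0.014 in all 3 limma fits. Without 1 sample, the log2 fold change ran from -0.14 to 0.11 for APC, -0.14 to 0.084 for AXIN1, -0.069 to 0.11 for DVL1, -0.035 to 0.30 for FZD2, -0.14 to 0.0052 for FZD4, -0.068 to 0.069 for GSK3A, -0.055 to 0.21 for LGR4, -0.021 to 0.10 for LRP5, -0.29 to 0.13 for LRP6, -0.085 to 0.48 for NKD2, -0.021 to 0.17 for PORCN, -0.028 to 0.031 for TCF7L2, -0.047 to 0.017 for TLE3 and -0.25 to 0.0059 for TNIK. The cause of these changes was not tested. A fit without 1 sample leaves an arm with 1 sample, which is assumed to vary like the other group.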
